A study of Triticum aestivum and Aegilops tauschii and Triticum carthlicum with 18 samples.

Results

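Allo-AT5, a synthetic allohexaploid wheat, was compared with TTR04, the durum wheat that gave it its A and B genomes, to see what the addition of a D genome changed in the leaf. Allo-AT5 (genome BBAADD) was derived from a cross of TTR04 (Triticum turgidum ssp. durum, BBAA) with TQ27, an accession of the goat grass Aegilops tauschii (DD), and was sampled after 4 and 5 rounds of selfing (S4 and S5). The comparison was between 6 of the 18 arrays in the study: 2 of Allo-AT5 S4 and 2 of Allo-AT5 S5, taken as 1 pooled group of 4, and 2 of TTR04. All 18 arrays entered the model and shared its estimate of the spread. Each array of a line or parent was hybridized with RNA of the second leaf from a pool of 10 seedlings at the stage of 3 leaves, kept at 22 °C in the light and 20 °C in the dark with days of 12 h. The plants of Allo-AT5 had been picked by genomic in situ hybridization for an intact set of chromosomes, so the line stands for 1 cross and for its euploid plants only. The other arrays served as references: TQ27 itself, MPV5 (the mid-parent value measured on 2 parts of TTR04 RNA mixed with 1 part of TQ27 RNA), and Allo-AT9, an allohexaploid with the same TQ27 father and another tetraploid mother, TTH01 (T. turgidum ssp. carthlicum). All groups were grown alike, and Allo-AT9 was likewise taken at S4 and S5.

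An allohexaploid wheat carries up to 3 related copies of a gene, called homoeologs, on its A, B and D chromosomes. A transcript that the tetraploid lacks can enter with the D genome, while transcripts of the A and B genomes take a smaller share of an equal amount of RNA when D transcripts are added. The wheat array reads each transcript through a probe set, a group of short probes designed on 1 expressed sequence, and such a group can bind the messages of several homoeologs to different degrees. A level therefore is that of a probe set and not that of a single homoeolog. Since RNA was taken from whole leaves, fewer cells of a type and less RNA per cell cannot be told apart in any of these values.

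Levels are given as log2 values after robust multichip averaging (RMA), on which a difference of 1 is a 2-fold difference. The array has 61290 probe sets, of which 175 are controls; the other 61115 were tested with limma, an empirical Bayes linear model, with Benjamini-Hochberg adjustment over all of them. Expression in a group required a level of 4.54 or more on each of its arrays, and 26977 probe sets were expressed in TTR04 or in at least 1 generation of Allo-AT5. A probe set was called when it was expressed and had an adjusted p under 0.05. Where both TTR04 arrays lay under 4.54, the difference was also given as "at least", counted from that level. Probe sets keep the names of the array with the first dot written as _, and gene symbols and chromosomes are those of 1 annotated copy in IWGSC CS RefSeq v2.1.

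The TTR04 arrays differed from each other more than the arrays of any other group. The SD of the difference between the replicates was 1.08 in TTR04 and 0.24 to 0.97 in the other 8 groups, and 8389 of 29667 probe sets expressed in any group lay more than 2-fold apart between the TTR04 arrays. TTR04 replicate 1 correlated with the 4 Allo-AT5 arrays at 0.784 to 0.825 across probe sets, and replicate 2 at 0.854 to 0.892. The S5 arrays of Allo-AT5 were close to each other, with an SD of 0.24 and 85 probe sets more than 2-fold apart, against 0.67 and 3393 for the S4 arrays. By level the tissue matched its label: Rubisco and oxygen-evolving complex genes were among the highest on the array. Only 3 of 17 seed storage and 0 of 4 anther probe sets reached the expressed level. The count of photosynthesis probe sets expressed, 16 of 36, was near the share over all tested probe sets, 26977 of 61115, and does not bear on the tissue. Results that rest on 1 TTR04 array are given with and without it.

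Most of the called changes were gains. Of 26977 expressed probe sets, 1513 (5.61%) were called between Allo-AT5 and TTR04, of which 1316 (4.88%) were higher and 197 (0.73%) were lower in Allo-AT5. The median log2 difference of the higher probe sets was 2.48, with quartiles of 1.68 and 3.69, and that of the lower ones was -1.25, with quartiles of -1.6 and -0.94. Over all expressed probe sets the median difference was -0.03. Among the higher probe sets 1255 differed by at least 2-fold, 500 by at least 8-fold and 143 by at least 32-fold, whereas 133 lower probe sets reached 2-fold and 11 reached 8-fold. Among called probe sets the changes upward were thus both more frequent and larger. The balance depended on the threshold: at an unadjusted p under 0.05 in limma, 2815 were higher and 2068 lower, so that 57.6% were higher, against 87% after adjustment. All 4 Allo-AT5 arrays lay above both TTR04 arrays for 1315 of the 1316 higher probe sets, and below both for all 197 lower ones. Without a test, 12.8% of expressed probe sets lay above in this way and 11.4% below.

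**Figure D1:**
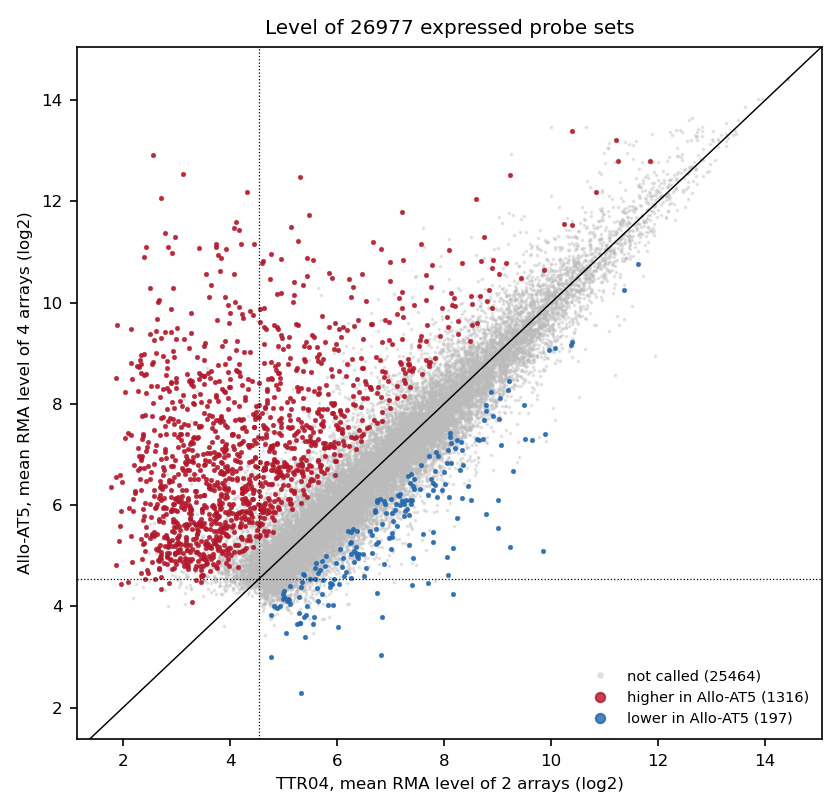
Mean RMA level (log2) of each of 26977 expressed probe sets in TTR04 (x axis, 2 arrays) and in Allo-AT5 (y axis, 4 arrays); red points are the 1316 probe sets called higher in Allo-AT5, blue points the 197 called lower and grey points the rest. The diagonal marks equal levels and the dotted lines the level of 4.54 that counts as expressed; the red points spread up to about the top of the scale at low TTR04 levels, while the blue points stay near the diagonal.

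Many of the higher probe sets had a low level in durum. In 712 of 1316 (54.1%) both TTR04 arrays were under 4.54, compared with 1212 of 26977 expressed probe sets (4.49%), although a probe set of that kind enters the test only through Allo-AT5. In 652 of these 712 all 4 Allo-AT5 arrays reached the level. The same probe sets were high in the goat grass: over the 1316 probe sets the median level was 4.04 in TTR04, 8.42 in TQ27, 7.2 in the RNA mixture MPV5 and 6.96 in Allo-AT5. Because MPV5 holds RNA of TTR04 and TQ27, it is no independent sample of either. Across probe sets the difference between its replicates correlated with that between the TTR04 replicates at 0.853. The lower probe sets had a median level of 7.02 in TTR04, 4.04 in TQ27, 6.22 in MPV5 and 5.48 in Allo-AT5. In both sets the median of Allo-AT5 lay between those of the parents and under that of the mixture.

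The number of lower probe sets depended on single arrays, most of all on those of TTR04. Without TTR04 replicate 1 the test called 985 probe sets higher and 67 lower, and without replicate 2 it called 1501 higher and 830 lower. Without S5 replicate 1 or 2 the lower probe sets numbered 76 and 85. Of the 197 lower probe sets, 38 were still called without replicate 1 and 149 without replicate 2. Called without each of the 6 arrays in turn were 813 of the 1316 higher probe sets (61.8%) and 31 of the 197 lower ones (15.7%). The gain of expression was therefore seen with either TTR04 array, while the size of the loss was not settled by these arrays. A model that held only the 6 arrays compared called 993 probe sets higher and 48 lower.

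The largest gains were in probe sets without a gene symbol. Ta_13207.1.S1_x_at stood at 12.88 and 12.99 in S4, at 12.9 and 12.87 in S5, and at 2.49 and 2.65 in TTR04. Its levels in Allo-AT5 were near the top of the scale of these arrays, which ended at 14.46, and those in TTR04 were far below 4.54. The log2 difference was 10.34 with an SE of 0.35, at least 8.37, with an adjusted p of 8.56e-09 in limma. Ta_23807.6.A1_at (12.41 to 12.77 in Allo-AT5 and 2.94 and 3.31 in TTR04) and Ta_23362.2.S1_at (11.82 to 12.18 against 2.89 and 2.55) followed, with differences of 9.43 and 9.35. The paired probe sets Ta_28592.1.S1_at and Ta_28592.1.S1_x_at read the same expressed sequence and gave 8.67 and 8.58. All 5 were high in TQ27, at means of 11.44 to 13.32, and low in the other tetraploid TTH01, at 3.1 to 5.03. None of the 5 could be given a gene name or a role.

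Among the probe sets with a gene symbol, 43 of 811 expressed ones (5.3%) were higher in Allo-AT5 and 9 (1.11%) were lower, near the shares over all probe sets. The higher ones covered 33 of 562 symbols. Nearly all symbols were of the numbered kind without a described product, and for these only the level and the chromosome are given.

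LOC543254 on 4D gave the largest difference of these. Ta_28784.1.S1_x_at stood at 11.41 and 11.16 in S4, at 11.01 and 11.05 in S5, and at 5.72 and 2.71 in TTR04. All Allo-AT5 arrays lay above both TTR04 arrays, which were themselves 3 units apart. The difference was 6.95 with an SE of 0.57 (adjusted p 1.08e-05). Its other called probe set, Ta_28784.1.A1_at, differed by 1.84, from 4.9 and 4.87 in TTR04 to between 6.54 and 6.87.

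LOC100037524 on 5D had the smallest adjusted p of the gains with a symbol. Ta_274.1.S1_at stood at 9.41 and 9.26 in S4, at 9.59 and 9.39 in S5, and at 3.36 and 3.21 in TTR04. The replicates of each group lay within 0.2 of each other, and the TTR04 arrays were under the expressed level. The difference was 6.13 with an SE of 0.21, at least 4.87 (adjusted p 8.56e-09). The level was 11.38 in TQ27 and 9.92 in MPV5, as means of 2 arrays.

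Genes with a difference of 5 or more made up a short list, most of them on D chromosomes. LOC100037538 on 5D rose by 5.72, LOC100037537 on 1D by 5.31, LOC606341 on 7A by 5.25, LOC780599 without a chromosome by 5.23, LOC100037599 on 5D by 5.2 and LOC100037518 on 3D by 5.06. The first had 9.92 to 11.25 in Allo-AT5 and 5.17 and 4.32 in TTR04. The last had 9.16 to 9.88 and 4.83 and 4.29. The call of LOC100037599 (Ta_16082.1.A1_at, adjusted p 0.0168) was lost when S4 replicate 1, S5 replicate 2 or either TTR04 array was left out, with a highest adjusted p over all alternatives of 0.15. Further down, LOC543420 on 3D rose by 4.52, LOC780670 on 2D by 4.46 and 3.31 on its paired probe sets, LOC100049038 on 4D by 4.28, LOC606369 on 1A by 3.44, LOC543471 on 2D by 3.28 and LOC606366 on 3D by 3.26 and 2.77. LOC543002 on 1D rose by 4.57 and 2.16 on its probe sets, the second a call lost under 7 of the 17 other settings, with S4 replicate 1 at 9.53 and the other 3 Allo-AT5 arrays at 7.35 to 7.66 on Ta_23704.1.S1_x_at.

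**Figure D2:**
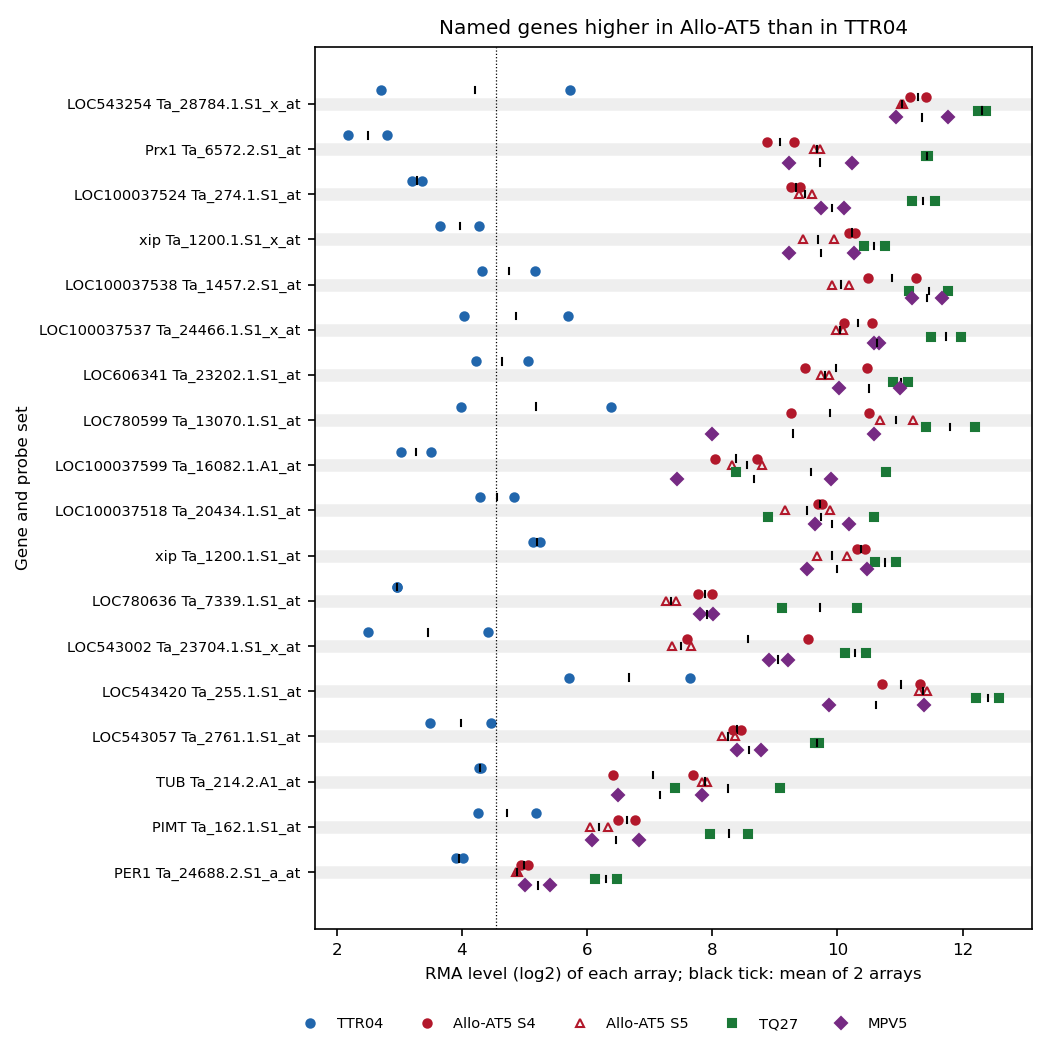
RMA level (log2) of each array for the genes called higher in Allo-AT5 that the naming rule takes, whose Allo-AT5 arrays all lie above TTR04, ordered by their difference from TTR04; blue circles are TTR04, red circles Allo-AT5 S4, open red triangles Allo-AT5 S5, green squares TQ27 and purple diamonds MPV5, and a black tick marks the mean of 2 arrays. Most red symbols lie near the purple ones and left of the green ones; the dotted line is the expressed level of 4.54.

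The gains sat mainly on the annotated D genome. Of the expressed probe sets with a symbol, 30 of 290 (10.3%) annotated to a D chromosome were higher in Allo-AT5, against 7 of 297 (2.36%) on A and 4 of 210 (1.9%) on B, and 2 of 14 had no chromosome. The lower ones were 3 on each genome. On the D chromosomes the higher probe sets numbered 5 of 47 on 1D, 6 of 58 on 2D, 6 of 50 on 3D, 6 of 30 on 4D, 4 of 34 on 5D, 1 of 30 on 6D and 2 of 41 on 7D, so that every D chromosome held at least 1. The same annotation was read in TQ27 against TTH01, whose arrays enter the comparison of Allo-AT5 with TTR04 only through the shared estimate of the spread. It gave 56 of 290 (19.3%) higher on D, 25 (8.42%) on A and 11 (5.24%) on B, against 13.7% of all 26977 probe sets expressed in Allo-AT5 or TTR04. These counts rest on the 811 probe sets with a symbol, and a probe set placed on 1 copy may bind the others.

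By role, inhibitor genes were represented by xip (symbol LOC542997 on 4D), a xylanase inhibitor, one of the proteins with which cereals block cell wall degrading enzymes of microbes. Its Ta_1200.1.S1_x_at stood at 10.18 and 10.28 in S4, at 9.45 and 9.94 in S5, and at 3.65 and 4.28 in TTR04. The TTR04 arrays were under the expressed level, and no Allo-AT5 array was below 9.45. The difference was 6 with an SE of 0.36, at least 5.42 (adjusted p 6.8e-07), and Ta_1200.1.S1_at of the same gene rose by 4.95. These probe sets of 1 gene were the 2 called of 4 expressed in the list of serpins and other inhibitors, against 5.61% called of all expressed probe sets. The other 2, of wci and wmai-0.28, were not called and had differences of -0.09 and -0.26, so that the median of 2.43 lies between xip and the rest. The gene for PR5, a thaumatin-like defence protein, was measured by Ta_24501.1.S1_at at 7.75 and 6.15 in S4, 6.35 and 6.28 in S5, and 5.3 and 5.51 in TTR04. Its groups did not overlap, and the difference of 1.23 had an adjusted p of 0.43.

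Redox enzymes gave 2 called of 12 expressed probe sets, both higher, against 4.88% higher of all expressed probe sets. The median of the list was 0.35 against -0.03. The list did not hold LOC543313, which the study labels a peroxidase. That gene was lower in Allo-AT5, with a difference of -2.99 (limma, adjusted p 0.00134). Prx1 (LOC606328 on 7A) was measured by several probe sets that did not behave alike. Ta_6572.2.S1_at stood at 8.87 and 9.3 in S4, at 9.72 and 9.62 in S5, and at 2.18 and 2.81 in TTR04, a difference of 6.88 with an SE of 0.53, at least 4.84 (adjusted p 6.06e-06). Ta_6572.1.S1_at stood at 8.87 and 9.2 in S4, at 9.64 and 9.59 in S5, and at 8.05 and 10.37 in TTR04. On this second probe set the Allo-AT5 arrays lay between the TTR04 arrays, and the difference was 0.12 (adjusted p 0.978). The same probe sets were opposite in the parents: Ta_6572.2.S1_at was at 11.43 in TQ27 and 2.78 in TTH01, and Ta_6572.1.S1_at at 3.57 in TQ27 and 9.93 in TTH01. Allo-AT5 thus had a high level on each of them. PER1 on 2B, a 1-Cys peroxiredoxin that removes peroxides, was near the expressed level, at 4.94, 5.05, 4.86 and 4.89 in Allo-AT5 and 4.01 and 3.91 in TTR04. Its difference of 0.98, at least 0.4, was called with an adjusted p of 0.0381, and the call was lost under 10 of the 17 other settings. The GSTZ1 gene, a zeta glutathione transferase of tyrosine breakdown, was at 8.78 to 9.21 in Allo-AT5, at 10.02 and 9.21 in TTR04 and at 2.76 in TQ27 on TaAffx_56524.1.S1_at. Its difference of -0.62 had an adjusted p of 0.458 in limma. On Ta_237.1.S1_at of the same gene Allo-AT5 was at 7.81 to 8.23 and TTR04 at 9.44 and 8.51, a difference of -1.03. Ta_237.1.S1_a_at differed by -0.47, and neither of these probe sets was called.

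Tubulins, the subunits of microtubules, showed the same contrast between probe sets of 1 gene. TUB (LOC543261 on 1A) on Ta_214.2.A1_at stood at 6.42 and 7.69 in S4, at 7.92 and 7.84 in S5, and at 4.31 and 4.28 in TTR04. All Allo-AT5 arrays were above TTR04, with S4 replicate 1 the lowest of them. The difference was 3.17 with an SE of 0.55, at least 2.93 (adjusted p 0.00573, and 0.0583 without TTR04 replicate 1). On Ta_214.1.S1_at the same gene stood at 6.47 to 7.52 in Allo-AT5 and at 6.32 and 7.9 in TTR04, a difference of 0.09. TQ27 was at 8.24 on the first and 5.11 on the second. Of 9 expressed tubulin probe sets, the first was the 1 called, against 5.61% called of all expressed probe sets.

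Of 9 expressed probe sets of methyl transfer and metal chelation 1 was called, against 5.61% of all expressed probe sets. This was PIMT on 2D, a methyltransferase that repairs damaged proteins. It stood at 6.77 and 6.5 in S4, at 6.05 and 6.33 in S5, and at 5.18 and 4.26 in TTR04, a difference of 1.69 with an SE of 0.32 (adjusted p 0.0112). The groups did not overlap, but the call was lost without TTR04 replicate 2. It was also lost when the model held only the arrays of the groups compared. PEAMT1 on 1D, a methyltransferase of choline synthesis, was at 10.75 to 12.53 in Allo-AT5 and at 7.87 and 12.42 in TTR04, so that its difference of 1.75 (adjusted p 0.579) rested on TTR04 replicate 1. The same held for lgul, a glyoxalase of methylglyoxal removal, at 7.64 to 8.49 in Allo-AT5 and at 5.92 and 8.82 in TTR04 (adjusted p 0.81).

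Photosynthesis genes were not called between the hexaploid and its mother. Of 16 expressed probe sets of 6 symbols, 0 were called by limma in either direction, and 1 had an unadjusted p under 0.05; the median difference was 0.35. PRK on 6D, the phosphoribulokinase that renews the acceptor of carbon dioxide, stood at 12.79 and 12.72 in S4, at 12.86 and 12.83 in S5, and at 11.43 and 12.9 in TTR04. OEE1 on 2D, a subunit of the oxygen-evolving complex, stood at 13.19 to 13.22 in Allo-AT5 and at 11.94 and 13.3 in TTR04. For both genes the Allo-AT5 arrays lay within 0.14 of each other and next to TTR04 replicate 2, with replicate 1 more than 1 unit below. FBP on 4A, a fructose bisphosphatase, had 9.74 to 10.31 in Allo-AT5 and 7.7 and 10.44 in TTR04. The petC gene, which encodes the Rieske iron-sulfur protein of photosynthetic electron transport, had 12.82 to 12.91 and 12.05 and 12.81. On Ta_24976.1.S1_x_at rbcl, the large subunit of Rubisco, was at 14.27 to 14.45 in Allo-AT5 and 14.42 and 14.45 in TTR04, close to the highest value on the arrays.

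TTR04 replicate 1 was below replicate 2 in 15 of these 16 probe sets, by more than 1 unit in 9, with a median of -1.19 between the arrays against 0.06 over all expressed probe sets. Its part in the differences of this list was measured by leaving out each array: without replicate 1 the differences of PRK, OEE1 and FBP were -0.1, -0.09 and -0.34, and without replicate 2 they were 1.37, 1.27 and 2.4. No gain or loss of photosynthetic transcripts in the hexaploid could be separated from the distance between the TTR04 arrays.

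**Figure D3:**
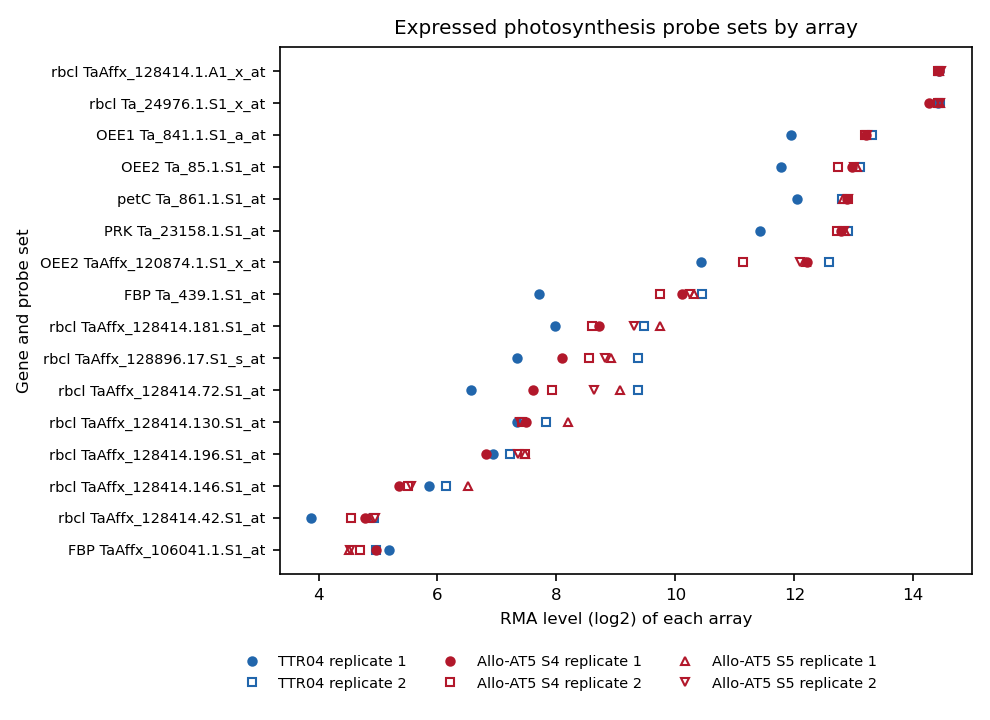
RMA level (log2) of each of the 6 arrays for the 16 expressed photosynthesis probe sets, ordered by the mean of Allo-AT5; blue symbols are TTR04 (filled circle replicate 1, open square replicate 2) and red symbols the Allo-AT5 arrays. TTR04 replicate 1 is the leftmost symbol in most rows, while TTR04 replicate 2 lies among the red symbols or at their right.

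The remaining lists held no called gene, by limma at an adjusted p under 0.05. Translation (9 expressed probe sets, 0 at an unadjusted p under 0.05, median difference -0.13), histones and chromatin (5, 1, 0.54), starch, fructan and glycolysis (6, 1, 0.47) and the seed storage proteins (3, 1, -0.18) had 0 called in either direction. Pgk-1, a phosphoglycerate kinase, stood at 12.26 to 12.47 in Allo-AT5 and at 10.19 and 12.37 in TTR04 (adjusted p 0.44). GAPN, a glyceraldehyde phosphate dehydrogenase of the cytosol, stood at 8.93 to 10.23 and at 6.67 and 9.59 (adjusted p 0.411). In both, TTR04 replicate 1 was again the low array. Gibberellin 20-oxidases, which make the precursors of active gibberellins, had 4 expressed probe sets, all with a positive difference and 3 with an unadjusted p under 0.05, but 0 called. The highest of them, GA20ox1d on 5D, stood at 6.87 and 5.51 in S4, at 5.53 and 5.81 in S5, and at 4.28 and 4.45 in TTR04, with a difference of 1.57, at least 1.39 (adjusted p 0.126).

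Turning to losses, some probe sets with a large decrease stood at different levels in the selfed generations. Ta_20930.1.S1_at stood at 6.84 and 7.12 in S4, at 3.22 and 3.2 in S5, and at 9.66 and 10.04 in TTR04. The S4 arrays lay midway between TTR04 and S5, and the S5 arrays were at the level of TQ27, whose arrays were at 3.71 and 3.03. The log2 difference was -4.76 for the pool (SE 0.43, adjusted p 2.31e-05), -2.87 for S4 and -6.64 for S5. Ta_14946.1.S1_at stood at 7.16 and 5.4 in S4, at 3.58 and 4.54 in S5, and at 9.65 and 8.84 in TTR04, with -2.96 for S4 and -5.18 for S5. LOC543313 on 2A (Ta_5385.1.S1_at), a peroxidase by the study's label, stood at 5.3 and 5.4 in S4 and at 3.41 and 3.57 in S5. TTR04 was at 7.27 and 7.55 on it. Its differences in limma were -2.06 for S4 (adjusted p 0.0577) and -3.92 for S5 (adjusted p 0.000604). In these 3 probe sets all 4 Allo-AT5 arrays were below TTR04 and both S5 arrays below both S4 arrays, and no other of the 197 had an S5 mean more than 1 unit below that of S4. All 3 were called without each of the 6 arrays in turn. The S4 and S5 comparisons share the TTR04 arrays, and the difference between the generations was not tested.

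Other losses were alike in both generations. Ta_12887.1.S1_at fell from 6.55 and 7.08 in TTR04 to 3.12, 2.98, 2.71 and 3.33 in Allo-AT5, all under the expressed level. The difference was -3.78 with an SE of 0.29 (adjusted p 6.34e-06), and counted from the expressed level the loss was at least 2.28. LOC542846 on 3D stood at 6.31 and 6.44 in S4, at 6.79 and 7.13 in S5, and at 9.28 on both TTR04 arrays, a difference of -2.61 (adjusted p 0.000949). LOC543421 on 3D stood at 6.03 and 5.97 in S4, at 6.31 and 6.09 in S5, and at 9.43 and 8.57 in TTR04, a difference of -2.91 (adjusted p 0.000198). These 3 decreases were also called without each array in turn. For LOC542846 and LOC543421 the mixture MPV5, which is no independent sample of TTR04, stood at 8.43 and 8.22, above every Allo-AT5 array. TQ27, TTH01 and Allo-AT9 had means of 5.22, 5.44 and 5.83 for LOC542846 and 5.72, 5.69 and 5.86 for LOC543421. On Ta_12887.1.S1_at they had 3.3, 2.9 and 2.72. Of the parents, TTR04 alone was thus high on these 3 probe sets. Not all losses were of this kind: on Ta_20930.1.S1_at TTH01 was at 10.64.

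LOC543416 on 6B and LOC543404 on 3A had the largest decreases among genes with a symbol, and both rested on TTR04 replicate 1. LOC543416 stood at 3.51, 5.04, 4.32 and 4.07 in Allo-AT5 and at 9.41 and 6.91 in TTR04, a difference of -3.93 (adjusted p 0.0139). LOC543404 stood at 5.48, 5.57, 5.62 and 5.48 in Allo-AT5 and at 10.34 and 7.66 in TTR04, a difference of -3.46 (adjusted p 0.00628). All Allo-AT5 arrays were below both TTR04 arrays, which were 2.5 units or more apart. TQ27, TTH01 and Allo-AT9 had means of 3.09, 4.02 and 3.41 for LOC543416 and 5.61, 5.67 and 5.42 for LOC543404. Without TTR04 replicate 1 the differences were -2.68 and -2.12. Neither gene was called then, nor when the model held only the arrays of the groups compared. Smaller decreases were called for LOC542936 on 7D (-1.27), LOC543244 on 7B (-1.14), LOC543267 on 4A (-0.85) and TaTPC1 on 3B (-0.65). TaTPC1, a cation channel of the TPC family, stood at 8.01, 8.38, 8.32 and 8.19 in Allo-AT5 and at 8.87 and 8.89 in TTR04 (adjusted p 0.0394). Each of these 4 calls was lost under at least 5 of the 17 other settings.

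Among the 31 lower probe sets called without each array in turn, several without a symbol can be given with their values, chosen after these were seen. Ta_12225.2.S1_at stood at 4.17 to 4.98 in Allo-AT5 and at 7.79 and 8.38 in TTR04, and Ta_12225.1.S1_x_at at 4.75 to 5.48 and at 7.83 and 7.78. Ta_29597.1.S1_at stood at 5.46 to 6.21 and at 9.35 and 8.23, and Ta_10626.1.A1_at at 4.58 to 4.86 and at 6.57 and 6.53. These decreases ranged from -3.45 to -1.79. Ta_24761.1.S1_a_at and Ta_8686.1.S1_at decreased by less, with differences of -1.67 and -1.37.

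**Figure D4:**
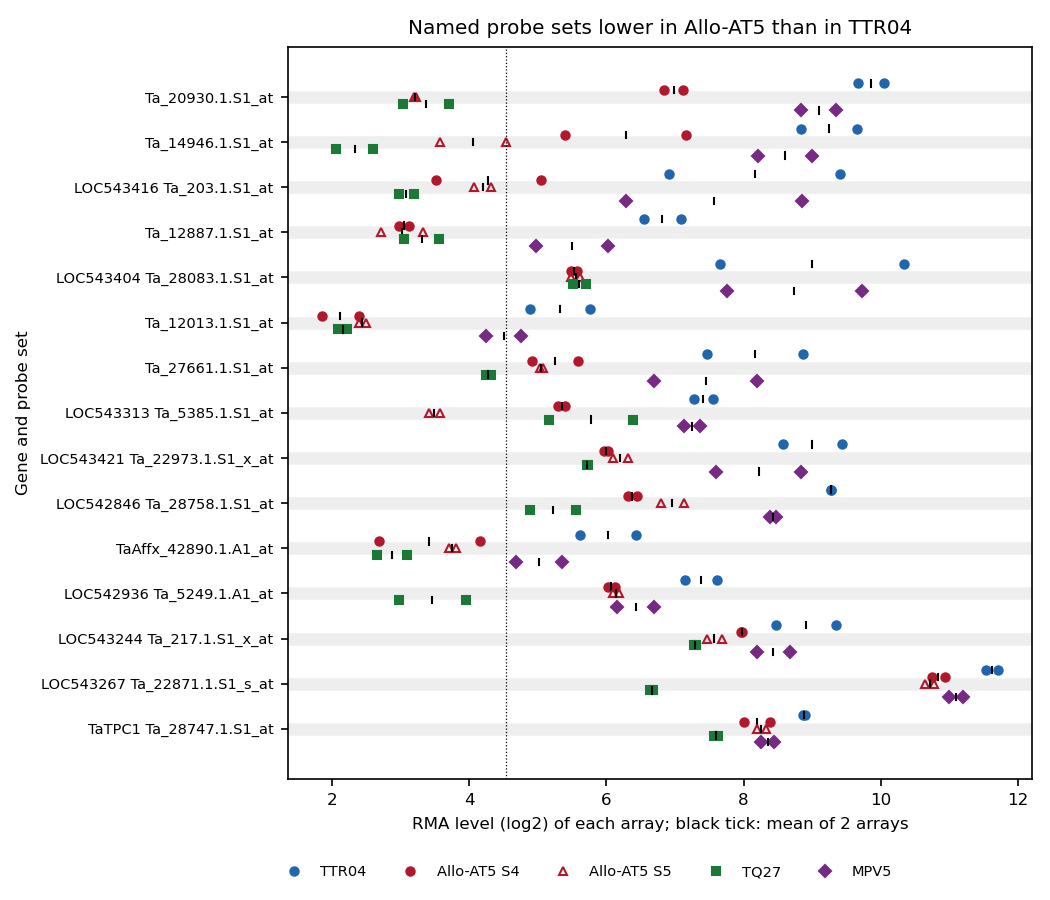
RMA level (log2) of each array for the named probe sets called lower in Allo-AT5, ordered by their difference from TTR04; blue circles are TTR04, red circles Allo-AT5 S4, open red triangles Allo-AT5 S5, green squares TQ27 and purple diamonds MPV5, and a black tick marks the mean of 2 arrays. All red symbols lie to the left of the blue ones in each row, and in the first row the S5 triangles lie far to the left of the S4 circles; the dotted line is the expressed level of 4.54.

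The genes gained by Allo-AT5 were largely those in which the goat grass exceeded a tetraploid wheat. Of the 1316 higher probe sets, 1260 (95.7%) were also higher in TQ27 than in TTH01, against 13.7% of all expressed probe sets, and 9 were lower there. Seen from the other side, these 1260 made up 34% of the 3709 probe sets higher in TQ27 than in TTH01 that were expressed in Allo-AT5 or TTR04. Most genes with a higher level in the goat grass were thus not called in Allo-AT5. Of the 197 lower probe sets, 110 (55.8%) were also lower in TQ27 than in TTH01, against 17.2% of all expressed probe sets, and 2 were higher there. They made up 2.37% of the 4637 probe sets lower in TQ27. Without TTR04 replicate 2 the share of the higher probe sets was 79% and that of the lower ones 36.1%, and without replicate 1 they were 96% and 29.9% (20 of 67).

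Some probe sets that were high in the goat grass remained low in the hexaploid. TaAffx_87200.1.S1_at stood at 2.37, 3.44, 3.16 and 3.6 in Allo-AT5 and at 3.63 and 4.02 in TTR04, while TQ27 was at 8.66 and 7.62 and the mixture MPV5 at 5.96 and 8.66. TaAffx_57297.1.S1_at was at 3.59 to 4.27 in Allo-AT5 and 4.19 and 3.44 in TTR04, with TQ27 at 10.21 and 7.15. The study labels it as the mitochondrial matR and nad1 genes, so it is not read here as a gene of the added D chromosomes. Ta_24245.1.A1_at was at 3.72 to 4.83 in Allo-AT5 and 4.32 and 3.86 in TTR04, with TQ27 at 10.88 and 7.84 and MPV5 at 8.58 and 10.19. On these 3 probe sets Allo-AT5 did not differ from TTR04 by more than 0.68 in either direction, and every array of TQ27 and of the mixture was above every array of Allo-AT5. They are among the genes that the study itself listed as non-additive or tested by RT-PCR, so their choice was not independent of these arrays. From the same lists, TaAffx_128796.1.S1_at rose from 2.46 and 2.32 in TTR04 to 8.92 to 9.08 in Allo-AT5, with a difference of 6.6. Ta_12013.1.S1_at fell from 5.76 and 4.88 to between 1.85 and 2.49, Ta_27661.1.S1_at from 8.86 and 7.46 to between 4.91 and 5.58, and TaAffx_42890.1.A1_at from 6.43 and 5.61 to between 2.68 and 4.16. The calls of these 3 decreases were lost without TTR04 replicate 1. Ta_14995.2.S1_x_at was at 8.46 to 8.73 in Allo-AT5 and at 12.25 and 10.14 in TTR04, and its difference of -2.63 had an adjusted p of 0.0654.

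A further 56 higher probe sets were not called higher in TQ27 than in TTH01, and some of them were at a low level in the goat grass. TaAffx_28462.1.S1_at stood at 6.77 and 8.57 in S4, at 8.44 and 8.1 in S5, and at 4.38 and 4.7 in TTR04. Its level was 5.24 in TQ27 and 4.98 in MPV5, so that all 4 Allo-AT5 arrays were above both parents and their mixture. The difference was 3.43 with an SE of 0.36 (adjusted p 9.96e-05). Allo-AT9 also stood high on it, with a mean of 9.11 against 4.81 in TTH01. Ta_8298.1.S1_at, chosen after its values were seen, stood at 7.59, 8.72, 8.28 and 8.22 in Allo-AT5 and at 5.4 and 6.28 in TTR04, with means of 3.38 in TQ27, 5.11 in MPV5, 3.73 in TTH01 and 3.5 in Allo-AT9. It was highest in Allo-AT5 among all groups given here. Its call was lost without TTR04 replicate 1, and also when the model held only the arrays of the groups compared. Ta_12396.1.S1_at, likewise chosen afterwards, varied widely, at 9.07 and 6.47 in S4, 10.63 and 9.73 in S5, 2.6 and 2.06 in TTR04, 8.14 and 4.58 in TQ27 and 2.23 and 6.98 in MPV5. Its call was lost under 6 of the 17 other settings, among them without either TTR04 array.

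The line Allo-AT9 gave a separate set of arrays for the same father. Differences between same-numbered arrays nevertheless correlated between TTR04 and the groups of this set, at 0.341 to 0.485. Against TTH01, 1370 of 26617 expressed probe sets (5.15%) were called in Allo-AT9, 1217 higher (4.57%) and 153 lower (0.575%), and without TTH01 replicate 1 the number called was 858. Of the 1316 probe sets higher in Allo-AT5, 945 (71.8%) were also higher in Allo-AT9, which was 77.6% of the 1217, against 4.3% of the probe sets expressed in Allo-AT5 or TTR04. A further 1 was lower, and 1276 had a positive difference. Of the 197 lower in Allo-AT5, 18 (9.14%) were also lower in Allo-AT9, which was 11.8% of the 153, against 0.404%, and 176 had a negative difference. The 18 became 5 (2.98%) without TTH01 replicate 1, 7 (4.17%) without TTH01 replicate 2 and 34 of 830 (4.1%) without TTR04 replicate 2. The median difference of Allo-AT9 from its own mother was 2.12 over the 1316 and -0.48 over the 197. Over all probe sets expressed in Allo-AT5 or TTR04 it was -0.06. The same direction was thus seen in most gains and in most losses; whether the shares called in both lines differ between gains and losses was not tested.

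A direct test of the difference between the lines called 70 of 28221 probe sets (0.248%), and 1288 had an unadjusted p under 0.05. Without TTH01 replicate 2 it called 38. In 33 of them (0.117%) the difference of Allo-AT5 from TTR04 exceeded that of Allo-AT9 from TTH01. All 33 were higher in Allo-AT5 than in TTR04, and 4 were also higher in Allo-AT9. In the other 37 (0.131%) the difference of Allo-AT9 exceeded that of Allo-AT5. There, 35 were higher in Allo-AT9 and 2, LOC543421 and Ta_12887.1.S1_at, were lower in Allo-AT5.

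**Figure D5:**
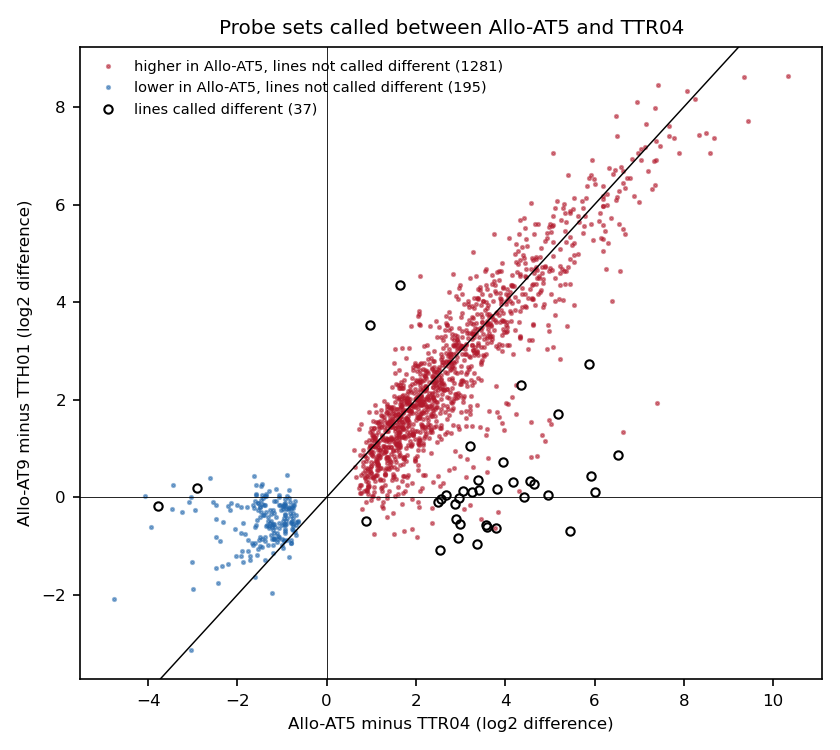
Log2 difference of Allo-AT5 from TTR04 (x axis) and of Allo-AT9 from TTH01 (y axis) for the 1513 probe sets called between Allo-AT5 and TTR04, red for those higher and blue for those lower in Allo-AT5; open black circles are the 37 probe sets in which the lines were called different. Most red points follow the diagonal of equal differences, a group of circles lies near 0 on the y axis at differences of 2 to 6 on the x axis, and the blue points lie mostly between the diagonal and 0.

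The gene xip was in the first group. In Allo-AT9 and TTH01 Ta_1200.1.S1_x_at had means of 10.64 and 10.53, and in TQ27 it had 10.59, so that of all these parents TTR04 alone was low, at 3.97. The difference between the lines was 5.89 (adjusted p 0.000684). LOC780636 on 4B had the same pattern on Ta_7339.1.S1_at: 7.99 and 7.77 in S4, 7.26 and 7.42 in S5, 2.96 on both TTR04 arrays, and means of 9.72 in TQ27, 8.72 in TTH01 and 8.99 in Allo-AT9. Its difference between Allo-AT5 and TTR04 was 4.65, at least 3.07, and that between the lines was 4.38 (adjusted p 0.00128). Ta_9346.1.S1_x_at and Ta_25062.1.S1_at, chosen after their values were seen, were also low in TTR04, at means of 5.44 and 2.28, and high in TTH01, at 11.03 and 8.97. In these genes it was the durum mother that stood apart.

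On Ta_7909.1.S1_at and Ta_30843.1.S1_at it was Allo-AT9 that stood apart. Ta_7909.1.S1_at was at 9.55 and 9.06 in S4, at 10.06 and 9.99 in S5, and at 3.73 and 3.77 in TTR04, a gain of 5.91, at least 5.12. TQ27 had a mean of 11.86, TTH01 of 3.48 and Allo-AT9 of 3.91, so that the level of the goat grass was seen in 1 hexaploid and not in the other. Ta_30843.1.S1_at was similar, at 7.07 to 7.37 in Allo-AT5, 3.03 and 2.21 in TTR04, 8.94 in TQ27, 2.65 in TTH01 and 2.99 in Allo-AT9. The differences between the lines were 5.48 (adjusted p 0.00128) and 4.23 (adjusted p 0.0073). LOC543057 on 6D, in contrast, rose in both lines, by 4.35 in Allo-AT5 and by 2.29 in Allo-AT9. The hexaploids had close means, 8.33 in Allo-AT5 and 8.18 in Allo-AT9, while the mothers were at 3.98 in TTR04 and 5.88 in TTH01. The difference between the lines of 2.05 was called (limma, adjusted p 0.0477), a call lost under 16 of the 22 other settings. Ta_18232.1.S1_at was at 7.63 to 8.79 in Allo-AT5 and at 4.83 and 5.71 in TTR04, with 5.05 in TQ27 and 5.32 in MPV5 but 8.98 in TTH01 and 8.45 in Allo-AT9. On it Allo-AT5 was above both of its parents and near the tetraploid that was not its mother, and the difference between the lines of 3.53 was lost under 12 of the 22 other settings.

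The generations of Allo-AT5 gave similar counts. Against TTR04, 1213 of 25919 expressed probe sets (4.68%) were called in S4, 1096 higher (4.23%) and 117 lower (0.451%), and 1115 of 26585 (4.19%) in S5, 1033 higher (3.89%) and 82 lower (0.308%). Without S5 replicate 1 or 2 the S5 comparison called 673 and 646, and without TTR04 replicate 2 it called 1790. Over the 1316 higher probe sets the median difference was 2.49 in S4 and 2.52 in S5. The means of S5 and S4 lay more than 1 unit apart in 39 of the 1513 called probe sets (2.58%), a share near the 2.56% over all expressed probe sets. LOC542941 on 7D was among them, at 3.28 and 3 in S4, 4.82 and 5.23 in S5 and 3.39 and 3.18 in TTR04, so that only S5 was above the mother; its pooled difference of 0.8 was a call lost under 10 of the 17 other settings. It was the 1 higher probe set whose Allo-AT5 arrays overlapped those of TTR04, and the mean of TQ27 was 3.39. Ta_7740.1.A1_at had 7.44 and 7.45 in S4 and 10.78 and 8.27 in S5, Ta_10774.1.A1_at 7.66 and 7.77 and then 9.2 and 9.18, and Ta_12172.1.S1_at 11.51 and 8.86 and then 7.78 and 8.64, all with TTR04 under 4.54. These 3 were chosen after their values were seen, and the difference between generations was not tested.

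Paired probe sets of the same cluster, a group of expressed sequences from which several probe sets were designed, could move in opposite directions. Of 1160 clusters with a higher probe set and 181 with a lower one, 4 had both. In cluster Ta_5469, Ta_5469.3.A1_at rose from 3.3 and 3.71 in TTR04 to 8.76, 8.86, 8.91 and 8.93 in Allo-AT5, while Ta_5469.2.S1_at fell from 11.59 and 11.14 to 10.13, 10.32, 10.26 and 10.33. The first was at 10.07 in TQ27 and 3.05 in TTH01, and the second at 4.59 and 11.04. In cluster Ta_10795 the probe set that rose, by 1.01, was at 7.55 in TQ27, and the one that fell, with a difference of -1.06, was at 2.51; these calls were lost under 4 and 7 of the 17 other settings. In both clusters the probe set that was low in the goat grass decreased by about 1 unit and the one that was low in durum increased. Clusters Ta_21998 and TaAffx_92707 had the same order.

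By design of the probe set, the gains were spread over all kinds. Probe sets with the plain suffix _at, meant to be unique, were higher in 982 of 18107 cases (5.42%), those with the suffix _x_at in 198 of 4335 (4.57%), those with _s_at in 62 of 1791 (3.46%) and those with _a_at in 74 of 2744 (2.7%). Clusters named Ta gave 1030 of 17721 (5.81%) and those named TaAffx 286 of 9256 (3.09%). The gains were thus not limited to probe sets with a suffix other than the plain _at. A probe set meant to be unique may still bind the messages of several homoeologs. These counts therefore cannot show whether the gains came from probe sets that bind several related transcripts.

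The study listed probe sets for dominance of 1 parent's level, of which only a part, 71 probe sets, was used here. Of these, 54 were expressed in Allo-AT5 or TTR04, 3 were higher and 1 was lower in Allo-AT5, against 4.88% higher and 0.73% lower of all expressed probe sets, so that the share is near the background. TaAffx_106278.1.S1_at rose from 2.6 and 2.62 in TTR04 to 5.09, 5.76, 4.79 and 4.94, by 2.54 (at least 0.6). Ta_4170.1.S1_at and Ta_4170.1.S1_x_at rose by 1.34 and 1.12, and Ta_5445.2.S1_x_at decreased, with a difference of -0.95; these 3 calls were each lost under at least 5 of the 17 other settings. Because the study chose the list on these arrays, these counts carry no independent evidence of its direction.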

How the data were processed

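The 18 wheat arrays covered 9 groups of 2, taken from the deposited labels. Before deposit, the authors applied RMA (background correction, quantile normalization and median polish) to the scanned arrays. The deposited log2 values were used unchanged and lie between 1.37 and 14.46, and the medians of the arrays between 4 and 4.11. Versions of the upstream tools are not given in the sources used here. Where RMA brings all arrays to 1 distribution, a change shared by most genes is removed. All groups entered 1 linear model without covariate in limma 3.58.1 (R 4.3.3), with 9 residual degrees of freedom, a prior of 2.99 and a median SE of 0.31 for the pooled contrast. MAS5 flags were not used here, and the level of 4.54 was set so that the number of expressed probe sets, 29667, comes near the number the methods give. The procedure was tested on simulated data. Precision is limited by the 2 arrays of each group. The alternatives were another filter, normalization, variance model or block, and leaving out each array.

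Genes are named by a rule: among called probe sets with 1 symbol, the 14 largest and 14 smallest differences, the 5 and 5 largest and smallest of all and those with the smallest adjusted p, the genes the study listed as non-additive or tested by RT-PCR, up to 3 members of a gene list in each direction, and a few genes by name; 40 of the 113 probe sets it takes were called. The text or its sensitivity checks take up 112 probe sets, 92 of them called: 58 by the rule and 54 outside it, among these the other called probe sets with a symbol, chosen with their values seen. The members, lists and rule were chosen with earlier results of these data known. No comparison column of the authors was used. Per the labels each replicate is a biological one from pooled seedlings. The pair of S5 arrays of Allo-AT5 differed least of the 9 groups (SD of the log2 difference 0.24), so an alternative counts them as 1 sample.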

Additional observations from a re-analysis of the deposited data

Results flagged for a closer look

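Within the 4 Allo-AT5 arrays, 112 named probe sets were searched for 1 array far from the other 3 by Dixon's ratio, and 11 were found. The chance rate of about 1 in 20 holds for 4 arrays of 1 group. These were 2 pairs of unlike spread, so the number found cannot be set against that rate. All 11 were S4 arrays, 8 of replicate 1 and 3 of replicate 2. Because the S5 arrays lay close together (SD of the difference 0.24, against 0.67 in S4), the search could hardly have picked an S5 array. S4 replicate 1 was the highest array on Ta_23704.1.S1_x_at (9.53) and Ta_23704.1.S1_s_at (10.6) of LOC543002, on Ta_24501.1.S1_at of PR5 (7.75) and on Ta_28667.1.S1_at (9.61). It was the lowest on Ta_214.2.A1_at of TUB (6.42), Ta_8058.1.S1_at (8.12), Ta_12225.1.S1_x_at (4.75) and Ta_12013.1.S1_at (1.85). S4 replicate 2 was the highest on Ta_23202.1.S1_x_at of LOC606341 (11.06), Ta_5098.2.A1_at of LOC780574 (7.23) and Ta_10139.1.S1_at of LOC543446 (7.41).

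The change from the tetraploid mother differed between Allo-AT5 and Allo-AT9 in 18 of the named probe sets, by limma's test of the difference itself. It was larger in Allo-AT5 for xip (5.89 on Ta_1200.1.S1_x_at and 4.92 on Ta_1200.1.S1_at), LOC780636 (4.38 on Ta_7339.1.S1_at and 3.85 on Ta_7339.1.S1_x_at), LOC543057 (2.05), Ta_9346.1.S1_x_at (6.13), Ta_7909.1.S1_at (5.48), Ta_25062.1.S1_at (4.4), Ta_30843.1.S1_at (4.23), TaAffx_106278.1.S1_at (3.62), Ta_18232.1.S1_at (3.53) and TaAffx_56231.1.S1_at (3.13). It was smaller in Allo-AT5, or a decrease there alone, for Ta_7102.1.S1_at (-5.99), Ta_28667.1.S1_at (-5.44), Ta_12887.1.S1_at (-3.6), LOC543421 (-3.08), Ta_8058.1.S1_at (-2.7) and Ta_11821.1.S1_a_at (-2.57). Ta_7102.1.S1_at was at a mean of 8.49 in Allo-AT9 and at 2.16 to 2.44 in TTR04, TTH01, TQ27, MPV5 and Allo-AT5. Of the 18, 10 were called under all 22 other settings.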

How the results depend on the processing

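The direction of Allo-AT5 against TTR04 did not turn for any called probe set named here under any of the 17 alternatives. Most settings could not have turned it. In nearly all called probe sets every Allo-AT5 array lay on the same side of both TTR04 arrays, so leaving out an array keeps the sign. Another filter, variance model or threshold leaves the difference as it is. Many calls near the threshold were lost, and losses were less stable than gains. Leaving out 1 array at a time (the lone array left is then assumed to vary like the other groups) gave 1052 to 2331 called probe sets for Allo-AT5 against TTR04, 985 to 1501 higher and 67 to 830 lower, 893 to 1413 for S4, 646 to 1790 for S5, 858 to 1351 for Allo-AT9, 38 to 102 for the difference between the lines and 7503 to 9309 for TQ27 against TTH01. With only the arrays of the groups compared, fewer degrees of freedom gave 48 lower probe sets, 370 called in S4, 674 in S5 and 46 between the lines. With the band of the BioC spike-in level (8 arrays high, 10 low) as a block, 320 were lower. At an unadjusted p under 0.05, 4883 were called, 2815 higher and 2068 lower, with 4117 in S4, 3889 in S5, 4241 in Allo-AT9 and 1288 between the lines; higher probe sets then made up 57.6%, against 87% after adjustment and 64.4% without TTR04 replicate 2. The S5 arrays averaged into 1 sample, an alternative chosen after seeing the data, gave 644 in S5 and 81 lower. For the other settings all counts stayed within 1.5 times.

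No label says that a replicate number pairs samples. In the groups of the main comparison same-numbered arrays did not deviate together: TTR04 correlated with Allo-AT5 S4 and S5 at -0.04 and -0.22, and S4 with S5 at 0.03. They did among Allo-AT9 S4, Allo-AT9 S5 and TTH01 (0.43 to 0.5), and TTR04 correlated with these 3 groups at 0.34 to 0.49. With the replicate number as a block 1700 probe sets were called, 1435 higher and 265 lower, with 1554 in Allo-AT9 and 81 between the lines.

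Among probe sets that were not called, the sign changed when 1 array was left out for PRK (-0.1 to 1.37), OEE1 (-0.09 to 1.27), FBP (-0.34 to 2.4), lgul (-0.67 to 2.24), PEAMT1 (-0.53 to 4.03), Ta_6572.1.S1_at of Prx1 (-1.04 to 1.28), Ta_214.1.S1_at of TUB (-0.7 to 0.87) and TaAffx_57297.1.S1_at (-0.22 to 0.53), and with the spike-in band for the last 3 (-0.12, -0.14 and -0.12). The cause was not tested. The number of arrays limits the precision of all these values.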
